A study of Rattus norvegicus with 6 samples.

Results

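Gdf15 (growth differentiation factor 15, Ensembl gene ENSRNOG00000019661) was followed in neonatal rat ventricular cardiomyocytes, the beating muscle cells of the newborn rat ventricle in primary culture. The gene was taken by its identifier, as 1 of 34052 features in the deposited table, and it was chosen by its FPKM in erastin against control libraries, the comparison described here. Its levels and its ranks are therefore given as a description, with no test. The cells had been treated with 10 µM erastin for 24 h (3 libraries) or were controls (3 libraries), which the name of the deposited table calls vehicle. No genotype, transgene or further agent is named for either group. Erastin inhibits system xc-, the exchanger that imports cystine for glutathione synthesis, and cells deprived of it can die by ferroptosis, in which iron drives the peroxidation of membrane lipids. Nothing in the labels tells whether replicates are separate cultures, so the spread between them may be technical.

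GDF15 is a secreted, divergent member of the transforming growth factor beta superfamily, made as a precursor that is cleaved by proprotein convertases to release the mature dimer. Its level is low in most healthy tissues and rises under mitochondrial, endoplasmic reticulum and oxidative stress, where the transcription factors ATF4, CHOP and p53 are known to act on the gene. The circulating protein acts through the receptor GFRAL with its co-receptor RET in the hindbrain, where it lowers food intake, and in heart disease it is used as a blood marker of cardiac stress.

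RefSeq places rat Gdf15 on chromosome 16 of the GRCr8 assembly, at chr16:18838436-18842022 on the plus strand, a span of 3587 bases with 2 annotated transcripts. Their starts lie 829 bases apart, at 18838436 and 18839265. The deposited values hold 1 row for the gene, so they do not tell the transcripts apart. Which of the 2 transcripts the row counts is not given. The 100 bases before each start are shown because the row does not tell the starts apart and the stretches differ in their core elements. They are from RefSeq, build GRCr8, plus strand, 5′ to 3′, at chr16:18838336-18838435 for the first start and chr16:18839165-18839264 for the second, with the matches that lie wholly inside the stretch in capitals.
Gdf15, first start: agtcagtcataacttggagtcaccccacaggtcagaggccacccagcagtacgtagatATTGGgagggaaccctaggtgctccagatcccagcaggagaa
Gdf15, second start: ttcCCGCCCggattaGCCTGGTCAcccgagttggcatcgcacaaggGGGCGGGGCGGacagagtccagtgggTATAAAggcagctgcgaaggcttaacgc
The 300-base windows from 250 bases before to 50 after each start were searched on both strands for 8 motifs. The window of the second start held 1 TATA box (TATAAA) whose first base lay at position -28, a motif found in 14.2% of the 33469 windows in the RefSeq table, against no match at the first start. It also held 5 matches to the GC box (GGGCGG), which 33.1% of all windows held, and 2 of these, at -54 and -49, overlap by 1 base. The antioxidant response element core (TGACNNNGC), present in 12.1% of all windows, matched at -85 and at -2 in the window of the second start, and the match at -2 runs past the end of the stretch shown. The CCAAT box (CCAAT, 37.5% of all windows) matched once, at -42 before the first start. Neither window held the C/EBP-ATF composite motif (TGATGCAA, 0.795% of all windows), the cAMP response element (TGACGTCA, 1.83%), the AP-1 motif (TGANTCA, 7.33%) or the p53 decamer (7.98%). A match is a run of letters and no match says only that those letters are not in these windows.

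Gdf15 RNA was among the most abundant in erastin-treated cardiomyocytes and far lower in controls, where its mean was still above that of 79.8% of the 13576 features tested, those reaching 1 FPKM in 3 or more libraries. Its level was given as FPKM, the fragments assigned to a feature scaled to its counted length and to the fragment total of the library. Gdf15 stood at 1635, 1696 and 1644 FPKM in erastin replicates 1, 2 and 3, against 37.2, 37.7 and 32.2 FPKM in control replicates 1, 2 and 3. The groups did not overlap, and the lowest erastin library stood 43.4-fold above the highest control library. All 3 erastin libraries stood above all 3 control libraries also in 45.7% of the tested features, so the separation alone says little about the gene. The size of the difference was less common, since a mean at least 8-fold higher with erastin was reached by 0.567% of the tested features, 77 of 13576.

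**Figure D1:**
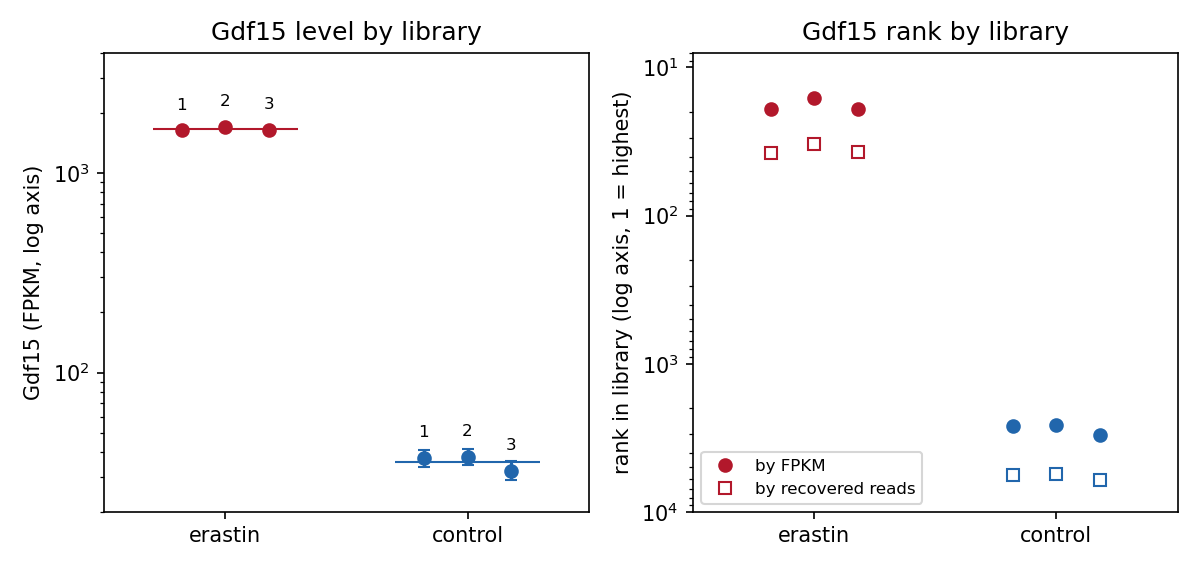
Gdf15 in each library, as FPKM on a log axis (left) and as rank on a log axis with rank 1 at the top (right). Numbers give the replicate, horizontal lines the group mean, and error bars the exact 95% Poisson interval of the reads, which for erastin is smaller than the points. The 3 erastin libraries sit between 1635 and 1696 FPKM and the 3 control libraries between 32.2 and 37.7 FPKM.

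The means were 1658 ± 32.9 FPKM with erastin and 35.7 ± 3.03 FPKM in control (SD, n = 3 each), a 46.5-fold higher mean. On the log2(FPKM + 1) scale the erastin minus control difference was 5.50 (SE 0.072 from the spread between libraries). The median difference over all tested features was 0.13 on the same scale, and Gdf15 stood 5.37 above it. Of all tested features, 42.3% rose with erastin and 24.1% fell in limma, with p-values adjusted by Benjamini-Hochberg and a threshold of 0.05. With each library centred on its median log ratio 49.8% of the changed features rose, against 63.7% as deposited. The values are relative to the counted RNA of a library, so a gain of Gdf15 RNA and a loss of other RNA cannot be told apart. Each library pools the RNA of many cells. More Gdf15 RNA per cell and a larger share of Gdf15-expressing cells therefore cannot be told apart either.

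The reads behind these values were recovered from the steps of the FPKM. They are the counted units of the FPKM, thus fragments, and are called reads here. Gdf15 was counted from 16629, 18589 and 16682 reads in erastin replicates 1, 2 and 3, against 390, 513 and 338 reads in control replicates 1, 2 and 3. The recovered library totals, by which the FPKM were scaled, were 11126968 to 12017459 reads for erastin and 11506854 to 14914827 reads for control. Gdf15 thus took 0.149% to 0.155% of the recovered total of a library with erastin and 0.00294% to 0.00344% in control. Counting error gave exact 95% Poisson intervals of 1611 to 1660, 1672 to 1721 and 1619 to 1669 FPKM for erastin replicates 1 to 3. For control replicates 1 to 3 they were 33.6 to 41.0, 34.5 to 41.1 and 28.9 to 35.8 FPKM. These intervals cover counting error only. The control intervals overlapped one another, while the interval of erastin replicate 2 lay above those of erastin replicates 1 and 3. The counted length was 912 bases, a whole 304 codons and far shorter than the span of the gene.

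Within each group the libraries were close. The highest erastin library was 1.04-fold above the lowest, and the highest control library was 1.17-fold above the lowest, control replicate 3 being the low one. The coefficient of variation was 1.98% with erastin, against 0.761% from counting alone, and 8.49% in control, against 4.97% from counting alone. By erastin level, the 15 tested features just above Gdf15 and the 15 just below had erastin means of 1038 to 3979 FPKM. Among these 30 features the median coefficient of variation in erastin libraries was 3.18%, and 25 varied at least as much as Gdf15. Among the 200 tested features nearest in control level the median in control libraries was 3.60%, and 17 varied at least as much. Gdf15 thus varied less than most of the 30 in treated cells and more than most of the 200 in controls. These features were matched on FPKM and not on reads. In control, the 4.97% from counting alone was already above the 3.60% median, so the comparison does not separate the gene from its counting error.

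The gene stood near the top of each erastin library and lower, though still above most features, in each control library. By FPKM over all features, Gdf15 ranked 19, 16 and 19 in erastin replicates 1, 2 and 3, against 2640, 2591 and 3029 in control replicates 1, 2 and 3. Between 18913 and 19064 features had a value above 0 in an erastin library, and between 18915 and 19370 in a control library. Ranked by recovered reads, which are not divided by length, it stood at 38, 33 and 37 in erastin replicates, against 5631, 5584 and 6089 in control replicates. By group means, 2746 features were above Gdf15 in control, and 2728 of them were below it with erastin. The gene held 0.307% of the summed FPKM of all features in erastin libraries and 0.00657% in control libraries, on average.

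**Figure D2:**
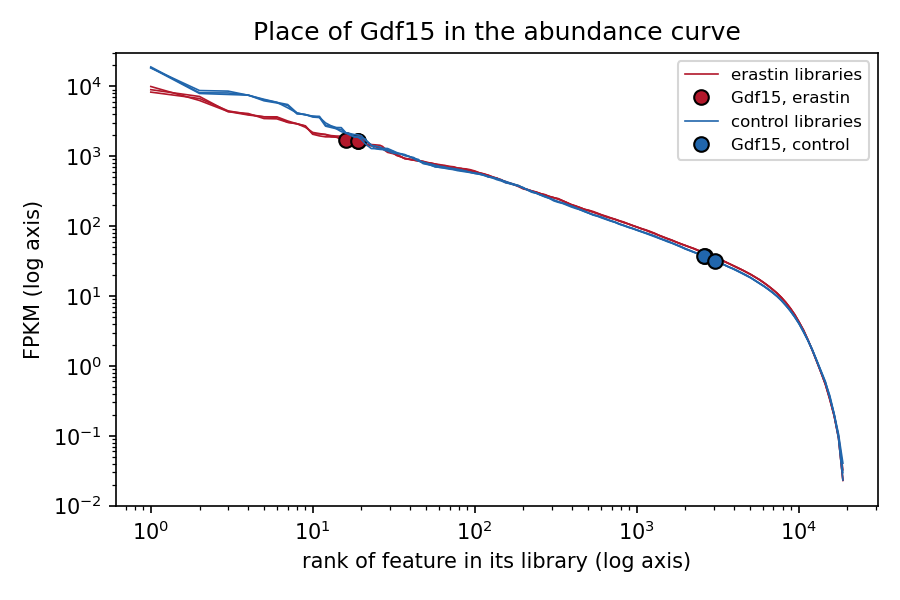
FPKM of the features of each library against their rank, both on log axes, with 1 line per library and Gdf15 as circles. The Gdf15 circles lie at ranks 16 to 19 in erastin libraries and at ranks 2591 to 3029 in control libraries.

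Most of the features that outranked Gdf15 in treated cells were already abundant in controls. Of the 18 features with a higher erastin mean, 13 were among the 25 highest in control, 4 ranked between 82 and 359 there, and 1 ranked 1660. Of these 18 features, 10 had a lower mean with erastin than in control. In order of erastin level, the next feature above Gdf15 averaged 1708 ± 11.7 FPKM with erastin and 1281 ± 63.4 FPKM in control (SD, n = 3 each). Its lowest erastin library, at 1695.5 FPKM, lay within the range of Gdf15. The next below averaged 1586 ± 48.9 FPKM with erastin and 6382 ± 160 FPKM in control (SD, n = 3 each). Its highest erastin library, at 1627 FPKM, lay just under the lowest of Gdf15. The 30 features around Gdf15 in order of erastin level had erastin means of 1038 to 3979 FPKM. Their control means were 209.7 to 8178 FPKM with a median of 1640 FPKM, so none was as low in control as Gdf15.

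Features that shared the control level of Gdf15 mostly differed less than 2-fold from their own control mean with erastin. The 200 tested features nearest in control level lay at 34.5 to 37.0 FPKM in control and at a median of 39.97 FPKM with erastin. Of these 200 features, 10 had a mean at least 2-fold higher with erastin and 16 at least 2-fold lower. The highest of them reached 288.8 FPKM with erastin, 8.28-fold above its control mean, and the lowest stood at 5.80 FPKM with erastin, 6.27-fold below its control mean. The median log2 difference of the 200 was 0.17, close to the 0.13 of all tested features.

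**Figure D3:**
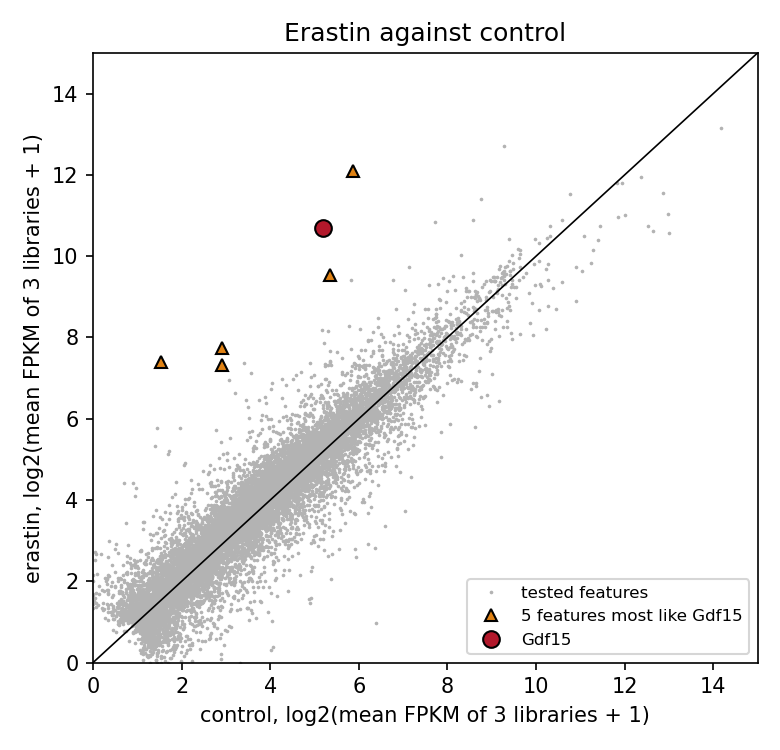
Mean level with erastin (vertical) against mean level in control (horizontal), both as log2(mean FPKM + 1), for the 13576 tested features, with the line of equal levels. Gdf15 (circle) lies far above the line, at a log2 difference of 5.50, and the 5 features most like it (triangles) lie above the line at higher and lower control levels.

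By size of increase on the log2(FPKM + 1) scale Gdf15 was the third of the 13576 tested features, and by gain in mean FPKM, 1623, it was the fourth. In fold of mean FPKM, 15 tested features were ahead of it. Of these, 13 had an erastin mean under 10 FPKM, including 7 listed at 0 in all control libraries, for which no fold can be given. The 2 others were the features just ahead of it on the log2 scale. The place on the log2 scale was the third also without any 1 of the 6 libraries. It was the eighth with voom on recovered reads and the 23rd with a pseudocount of 0.01.

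The features with a pattern most like that of Gdf15 were named by their distance over the 6 libraries, each taken as log2(FPKM + 1) minus its control mean. The deposited table pairs no identifiers with symbols, so these are given without gene names or roles. The nearest, at a distance of 0.97, was ENSRNOG00000033153, with 168 ± 2.51 FPKM with erastin and 1.91 ± 0.731 FPKM in control (SD, n = 3 each). Its control level rested on 12 to 21 reads a library. The second, at a distance of 1.18, was ENSRNOG00000031167, with 213 ± 5.90 FPKM with erastin and 6.53 ± 0.929 FPKM in control (SD, n = 3 each). The other 3 lay at distances of 1.29, 1.89 and 2.30 and had means 77.0-fold, 24.5-fold and 18.6-fold higher with erastin. All 5 are among the largest increases, as a distance of this kind requires. Control replicate 3, the lowest control library for Gdf15, was also the lowest for 3 of these 5 features and for 35.4% of all tested features. Erastin replicate 2, the highest for Gdf15, was the highest for 2 of the 5 and for 32.0% of all tested features.

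**Figure D4:**
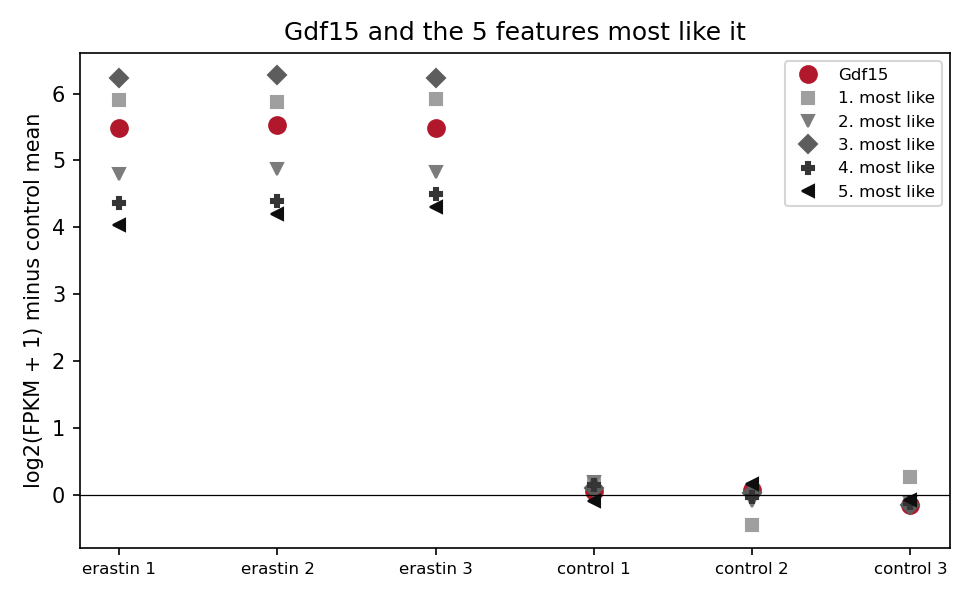
Gdf15 and the 5 features most like it in each library, as log2(FPKM + 1) minus the control mean of the feature. Gdf15 (circles) lies near 5.50 in all 3 erastin libraries, between the first and second of the like features, and all 6 lie around 0 in control libraries.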

How the data were processed

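Poly(A)-selected RNA of 6 libraries, 3 erastin and 3 control, was sequenced as paired ends with dUTP marking of the second strand, per the labels' protocols. HISAT2 2.0.5 and DESeq2 appear, without a role, in the submitters' processing notes. How reads were counted, and on which build, is not given in the sources used here. FPKM were deposited by the authors in 1 table, with 1 column per library, and samples were grouped by title. The pairing of the Gdf15 identifier with its name was taken as given: the RefSeq table of GRCr8 matched 0 of the 34052 identifiers. Pathway lists and cell type markers, and with them the labelled cell type, were therefore not analysed here.

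Whole reads were recovered with Python 3.11.15 as the smallest counted length that gives whole reads in every library, which was found for all 13576 tested features within a tolerance of 0.0002 reads plus a relative 1e-08. The fit across all features was limma 3.58.1 (R 4.3.3), with a trended, robust prior, on log2(FPKM + 1). It was also run on simulated data with far fewer changed features than were called here. That run therefore does not bear on the share called. Named features followed the distance rule. The gene, the lists and the rules were chosen with earlier results of these data known. Alternatives were the replicate block, each library left out, other pseudocounts, filters, scalings and voom on recovered reads.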

Additional observations from a re-analysis of the deposited data

How the results depend on the processing

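The log2 difference of Gdf15, 5.50, stayed positive in 15 alternatives and within the replicate SD of 0.089 in 13 of them. The replicate block and the changed filters are among the 13 and could not move it, since they leave the group means of the gene as they are. The fits without 1 library are also among the 13. With 3 libraries a group, leaving 1 out cannot shift the difference by as much as this pooled SD. Staying within it was thus fixed in advance for these fits too. With groups so far apart the sign was hardly at stake. The difference was 5.37 with each library centred on its median log ratio and 5.39 with voom and centring. Both by construction remove a common shift, here 0.13 on log2(FPKM + 1) and 0.15 with voom. Leaving out 1 library gave 5.43 to 5.54, the lowest without control replicate 3. The gene kept its place as number 3 among the increases in 12 of 15 alternatives, and it was number 23 with a pseudocount of 0.01 and number 8 with voom, with or without centring. Its median rank by FPKM was 19 in erastin and 2640 in control libraries, and 37 and 5631 by recovered reads, which are not scaled by length. Over all features, 9011 changed in limma, 8347 to 8522 without 1 library and 1344 with a log2 difference of at least 1 required as well. Of the changed features 63.7% rose, and 49.8% with centring, 51.8% with quantile normalization, 52.0% with the minimum difference and 49.5% with voom and centring. With the replicate block 8768 features changed. The Gdf15 difference was 5.50, which the block cannot alter when every replicate number is present in both groups. Same-numbered libraries were not paired by the labels, and their deviations correlated at -0.028, 0.072 and 0.027, against -0.069 to 0.04 between other numbers. The alternatives for count tables and gene lists were not run. The control level of Gdf15 rests on 338 to 513 reads a library, which limits its precision more than the 16629 to 18589 reads with erastin.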
